A study of Homo sapiens with 4 samples.

Results

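Notch receptors, their ligands and the genes that report Notch activity were followed in PC-3M-luc cells after knockdown of LSD1. The 10 genes, of 22852 gene symbols in the count tables, were the receptors NOTCH1, NOTCH2 and NOTCH3, the ligands JAG1, JAG2, DLL1 and DNER, the target repressors HES1 and HEY1, and the feedback inhibitor NRARP. They were chosen by name with earlier results of these data known, and the RefSeq transcript with the highest mean count over the 4 libraries stood for each gene. The knockdown-against-control values of the 10 genes are therefore given as a description. Their p-values come from the fit over all genes and do not allow for that choice.

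The knockdown group held 2 libraries of cells transfected with RNAi against LSD1, and the control group held 2 libraries of cells transfected with an RNAi control. All cells were harvested 72 h after transfection with the same reagent. PC-3M-luc is an established line, a luciferase-marked derivative of a metastatic human prostate carcinoma, so the results describe a single line. The labels call the libraries biological replicates, while the series design text speaks of a knockout. Neither the duplex sequences nor their number are given in the sources used here.

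Notch receptors are cut at the cell surface after they bind a ligand on a neighbouring cell. The released intracellular domain joins the DNA-binding protein RBPJ and coactivators of the Mastermind family and switches on genes such as HES1, HEY1 and NRARP. Without that domain, RBPJ recruits corepressors, and LSD1 has been described as part of such RBPJ repressor complexes. HES1 and HEY1 are basic helix-loop-helix repressors, and NRARP limits Notch activity by binding the complex of the intracellular domain with RBPJ.

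The bases upstream of the start sites of HES1 and NRARP are shown because both are direct Notch targets, and RBPJ is known to bind the HES1 promoter. RefSeq sequences on GRCh38.p14 were found for 7 of the 10 genes, without DLL1, DNER and HEY1. The HES1 sequence covers chr3:194135898-194136147 on the plus strand and the NRARP sequence chr9:137302272-137302521 on the minus strand, each the 250 bases before the start site, 5′ to 3′. Capitals mark TGGGAA, the core of the RBPJ motif, searched on both strands.
HES1: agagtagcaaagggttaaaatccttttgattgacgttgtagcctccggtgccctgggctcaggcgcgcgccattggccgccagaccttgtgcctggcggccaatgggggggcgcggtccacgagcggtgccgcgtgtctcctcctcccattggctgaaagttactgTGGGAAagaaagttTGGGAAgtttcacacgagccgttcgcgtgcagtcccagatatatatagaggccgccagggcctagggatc
NRARP: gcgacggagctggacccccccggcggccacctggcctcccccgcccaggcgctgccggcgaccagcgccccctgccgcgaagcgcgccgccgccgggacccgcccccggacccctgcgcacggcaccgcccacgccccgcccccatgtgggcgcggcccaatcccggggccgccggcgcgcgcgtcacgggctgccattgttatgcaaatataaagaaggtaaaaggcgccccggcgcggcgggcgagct
HES1 held the core 2 times, at 65 to 70 and at 79 to 84 bases before the start site. The copy farther from the start site also matched the longer form GTGGGAA, which overlaps the core. NRARP, JAG1, JAG2, NOTCH1, NOTCH2 and NOTCH3 held neither form in this window. The core occurred in 20.8% of 35116 RefSeq promoters of this length, at least 2 copies in 2.9%, and GTGGGAA in 5.43%. A match is a description of letters and not of bound sites. Other forms of the RBPJ motif were not searched, so unmarked bases are not shown to be free of them.

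Counts assigned to genes ranged from 12041283 to 12832064 per library, so that 3 counts equalled 0.234 to 0.249 CPM, the counts scaled to library size, before TMM scaling. KDM1A (NM_001009999), which encodes LSD1, had 17.8 and 18.1 CPM in knockdown libraries, against 235 and 238 CPM in control libraries, a log2 fold change of -3.72 ± 0.0974 (SE, edgeR adjusted p = 2.84e-24). Over 13252 tested genes 36.1% were called, 18.2% higher and 17.9% lower in knockdown cells. The chi-square per gene was 4.12 between the knockdown libraries and 4.79 between the control libraries, and 25.3 to 27.6 across the groups. KRT8, KRT18 and KRT19, keratins of luminal epithelium, had 2408 to 6217 counts in every library. Summed with KRT5 and KRT14, keratins of basal epithelium, they amounted to 947 and 999 CPM in knockdown libraries and 924 and 941 CPM in control libraries. KRT8 rose by 0.47 on the log2 scale (edgeR adjusted p = 1.86e-05), and KRT18, KRT19 and KRT14 did not pass. KRT5 had 46 and 25 counts in knockdown libraries, against 7 and 6 counts in control libraries, and rose by 2.40 (edgeR adjusted p = 3.66e-05). KLK3, KLK2 and FOLH1, genes of prostate luminal cells, had 0 counts in all libraries. Summed markers of endothelium amounted to 2.70 and 1.93 CPM in knockdown and 3.62 and 3.46 CPM in control libraries, and CDH5 was at 0. Summed leukocyte markers amounted to 2.78 and 3.17 CPM in knockdown and 4.51 and 2.96 CPM in control libraries, with PTPRC and CD3E at 0. Of these 2 lists of 5 markers PECAM1 and CD79A fell and LYZ rose. Of 5 fibroblast markers COL1A2 rose, and their sum was 72.1 and 76.0 CPM in knockdown against 69.2 and 72.2 CPM in control libraries, so that the groups overlapped. The part of the marker genes, keratins included, in the results below was not tested.

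Of the 10 Notch genes, HEY1 and DNER fell after LSD1 knockdown, and NRARP and NOTCH2 rose. HEY1 was 2.01-fold lower and DNER 3.38-fold lower, whereas NRARP was 1.34-fold and NOTCH2 1.17-fold higher. NOTCH1, JAG1, JAG2 and HES1 did not pass the test, and NOTCH3 and DLL1 did not pass the filter on low counts. The 4 called of 8 tested genes stand beside the 36.1% called over all genes, and nothing is read from that count. The median log2 fold change of the 8 tested Notch genes was 0.099, against 0.0023 over all genes tested. In bulk RNA, a lower value in every cell and fewer cells that express the gene cannot be told apart.

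**Figure D1:**
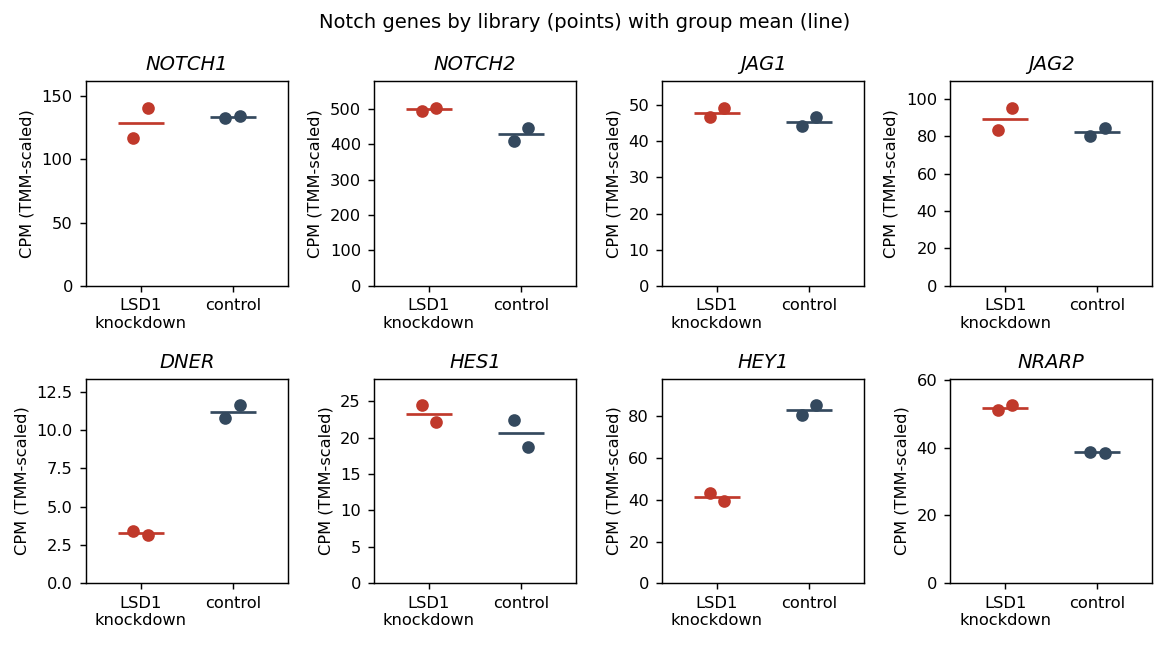
TMM-scaled CPM of the 8 tested Notch genes (vertical axes from 0), with a point for each library and a line at the group mean, LSD1 knockdown left of control. The groups lie apart for NOTCH2, DNER, HEY1 and NRARP and overlap for NOTCH1, JAG1, JAG2 and HES1. Over all genes tested they lie apart for 67.2%.

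Among the receptors, NOTCH2 (NM_024408) had 6045 and 6523 counts in knockdown libraries, against 5092 and 5431 in control libraries. Scaled for depth, these were 495 and 504 CPM in knockdown cells and 410.0 and 447 CPM in control cells. Both knockdown libraries lay above both control libraries, as they lay apart in either direction for 67.2% of all genes tested. The log2 fold change came to 0.22 ± 0.0817 (SE, edgeR adjusted p = 0.0328), a small difference near the threshold. The call was lost without knockdown replicate 1 (0.23, edgeR adjusted p = 0.0869), without knockdown replicate 2 (0.21, edgeR adjusted p = 0.126) and without control replicate 1 (0.16, edgeR adjusted p = 0.267). A second NOTCH2 transcript (NM_001200001) had 98.2 and 100.3 CPM in knockdown libraries, against 71.3 and 98.6 CPM in control libraries, scaled to gene counts. Its groups overlapped, and in its place the log2 fold change was 0.19 (edgeR adjusted p = 0.164). NOTCH2NLA, a partial copy of NOTCH2 whose reads can be shared with it, had 451 and 487 counts in knockdown and 403 and 473 in control libraries, so how reads were split between the copies remains uncertain.

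NOTCH1 (NM_017617), the founding member of the receptor family, had 117 and 141 CPM in knockdown libraries, against 133 and 134 CPM in control libraries. The knockdown libraries lay on either side of the control libraries. Its log2 fold change of -0.049 had a 95% interval of -0.23 to 0.13 (edgeR adjusted p = 0.701), and without knockdown replicate 1 it was 0.073. NOTCH3, a receptor known from smooth muscle of vessels, had 1 and 0 counts in knockdown and 2 and 1 counts in control libraries. Its counts were at or below 3, and no fold is given. Without the filter it was tested and not called (edgeR adjusted p = 0.604).

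The canonical ligands did not separate the groups. JAG2 (NM_002226) had 83.3 and 95.2 CPM in knockdown cells, against 79.9 and 84.5 CPM in control cells, a log2 fold change of 0.12 within a 95% interval of -0.063 to 0.30 (edgeR adjusted p = 0.318). JAG1 (NM_000214) had 46.7 and 49.3 CPM in knockdown cells, against 44.2 and 46.7 CPM in control cells, a log2 fold change of 0.079 within a 95% interval of -0.11 to 0.27 (edgeR adjusted p = 0.55). Both intervals take in 0 and exclude a change of the size seen for HEY1. Exons of JAG2 overlap those of AL512356.1 on the same strand over 469 nucleotides, or 7.33% of its exons. DLL1, a Delta-type ligand, was listed at 0 in all 4 libraries, which allows up to 0.234 to 0.249 CPM per library. A listed 0 is given with care, since the acetyltransferase gene KAT2A, in use in most cells, also stood at 0 in every library.

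DNER (NM_139072), a transmembrane protein with EGF-like repeats that was described as a non-canonical Notch ligand in the mouse nervous system, had 42 and 41 counts in knockdown libraries, against 134 and 141 counts in control libraries. These were 3.44 and 3.17 CPM in knockdown cells and 10.8 and 11.6 CPM in control cells. Each knockdown library lay far below each control library, by more than the spread within either group. The log2 fold change came to -1.76 ± 0.191 (SE, edgeR adjusted p = 8.34e-09), and it ranged from -1.82 to -1.70 over the alternatives tried. In all 1.67% of tested genes were called with a fall of at least 2-fold.

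**Figure D2:**
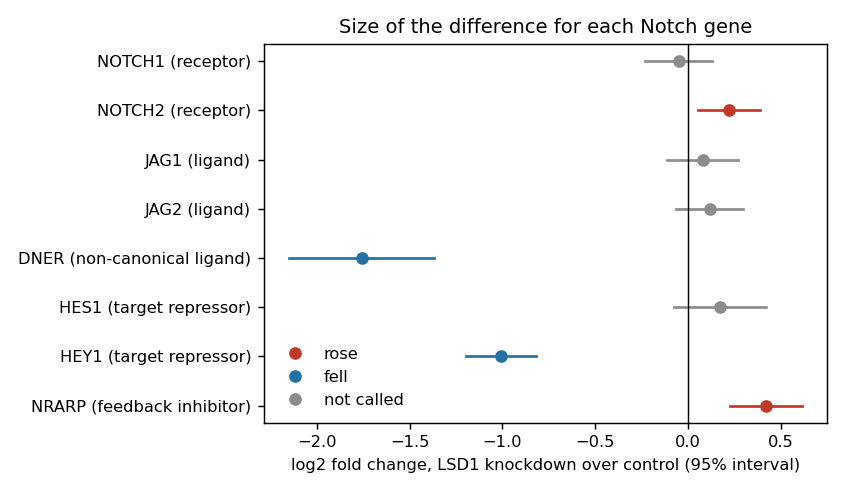
Log2 fold change of each tested Notch gene, LSD1 knockdown over control (horizontal axis), with its 95% interval as a bar, in order of role. DNER (-1.76) and HEY1 (-1.01) lie below 0, NRARP (0.42) and NOTCH2 (0.22) above it, and the intervals of NOTCH1, JAG1, JAG2 and HES1 take in 0.

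The 2 target repressors gave different values. HEY1 (NM_001040708) had 529 and 508 counts in knockdown libraries, against 1001 and 1035 counts in control libraries. Its means were 41.3 ± 2.86 CPM in knockdown cells and 82.9 ± 3.26 CPM in control cells (SD, n = 2 each). All knockdown values lay well below all control values, with a log2 fold change of -1.01 ± 0.0927 (SE, edgeR adjusted p = 2.88e-10). The second HEY1 transcript (NM_012258) had 529 and 508 counts in knockdown and 999 and 1033 counts in control libraries, nearly the same reads. HES1 (NM_005524) had 298 and 286 counts in knockdown libraries, against 279 and 227 counts in control libraries. Its groups overlapped in CPM, at 22.1 and 24.4 in knockdown and 18.7 and 22.5 in control cells. The log2 fold change of HES1 was 0.17 with a 95% interval of -0.074 to 0.42 (edgeR adjusted p = 0.277), an interval that excludes a fall of the size of HEY1. Per kilobase, HEY1 stood at 1.22 times the level of HES1 in each knockdown library, against 2.47 and 3.13 times in the control libraries.

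NRARP (NM_001004354) had 623 and 678 counts in knockdown libraries, against 482 and 466 counts in control libraries. Its means were 51.7 ± 0.99 CPM in knockdown cells and 38.6 ± 0.315 CPM in control cells (SD, n = 2 each). Knockdown libraries were all above control libraries, and the spread within each group was small. The log2 fold change came to 0.42 ± 0.0944 (SE, edgeR adjusted p = 0.000623), and it stayed called in all alternatives tried, at 0.40 to 0.46. Among 3 genes known as Notch targets HEY1 was lower, NRARP was higher and HES1 did not pass the test.

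Set on a scale of CPM per kilobase of transcript, NOTCH2 was the most abundant of the 10 genes in both groups, at 43.9 ± 0.576 in knockdown and 37.6 ± 2.30 in control cells (SD, n = 2 each). In knockdown cells NRARP followed at 29.2, then HEY1 at 18.0, JAG2 at 15.3, HES1 at 14.7, NOTCH1 at 13.9, JAG1 at 8.08 and DNER at 1.01. The libraries of JAG2, HES1 and NOTCH1 overlapped there, while those of the other neighbours did not. In control cells HEY1 followed NOTCH2 at 36.1, then NRARP at 21.8, NOTCH1 at 14.3, JAG2 at 14.1, HES1 at 13.04, JAG1 at 7.65 and DNER at 3.43. There the libraries of NOTCH2 and HEY1 overlapped, as did those of NOTCH1 with JAG2 and of JAG2 with HES1. The ratio of NOTCH2 to NOTCH1 was 3.46 and 2.92 in knockdown libraries and 2.53 and 2.72 in control libraries. The ratio of JAG2 to JAG1 was 1.82 and 1.97 in knockdown libraries and 1.84 in each control library.

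**Figure D3:**
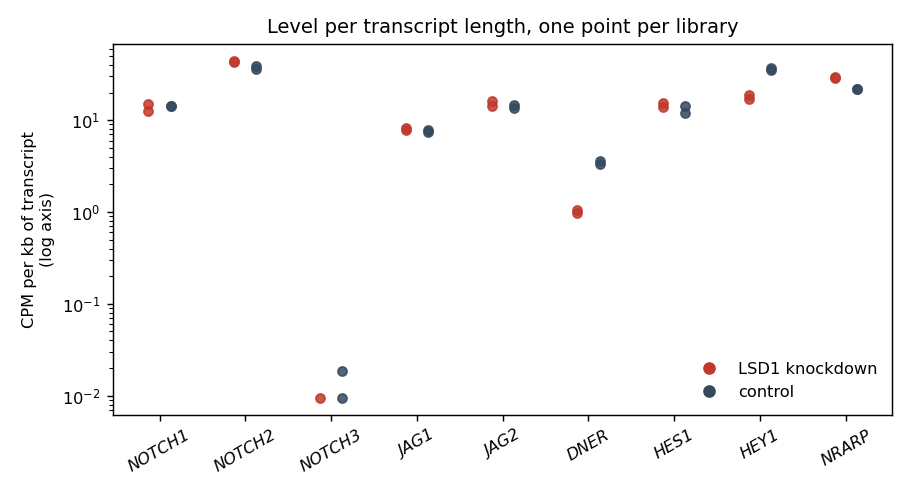
CPM per kilobase of transcript (log axis) for 9 of the 10 Notch genes, with a point for each library and LSD1 knockdown left of control. DLL1 and the knockdown library with no NOTCH3 count have no point. NOTCH2 lies highest, NOTCH3 lies far below the others, and HEY1 and DNER are the genes with the widest gap between groups.

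The rest of the pathway was described with a list of 77 other genes, ordered by role. Of 63 that passed the filter on low counts, 14 rose and 12 fell, or 41.3% called beside 36.1% of all genes, with a median log2 fold change of 0.024 against 0.0023 over all genes. Of the 26 called genes, 10 kept their call in all alternatives tried. These were EP300, L3MBTL3, TLE2, TLE4, CDK8 and MIB1, which rose, and RBPJ, NUMBL, FBXW7 and NEDD4, which fell.

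**Figure D4:**
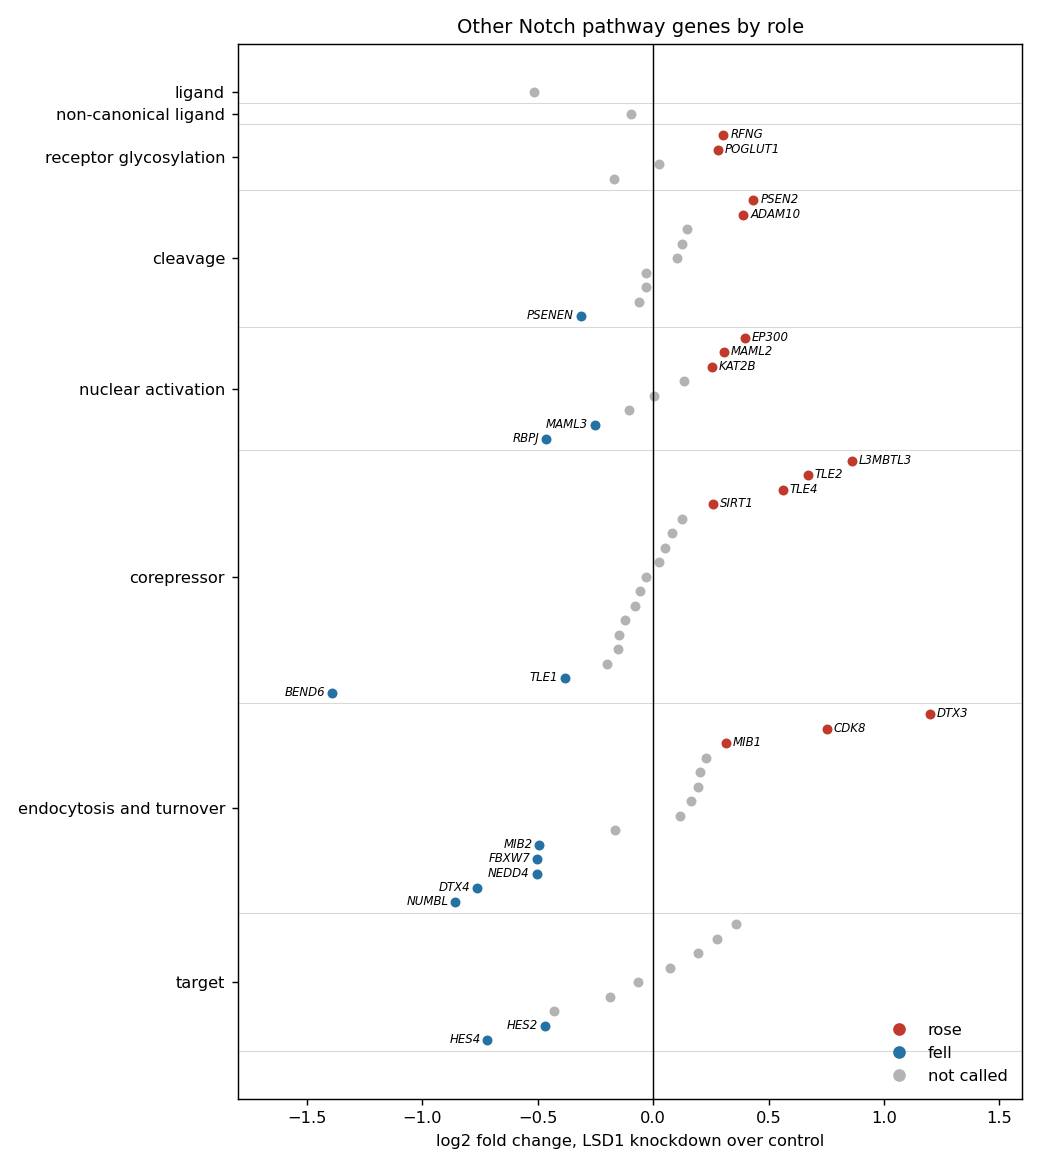
Log2 fold change, LSD1 knockdown over control (horizontal axis), of the 63 tested genes of the wider Notch pathway, grouped by role down the page. Red points rose, blue points fell and grey points, drawn without names, did not pass. The cleavage, nuclear activation, corepressor and turnover groups hold red and blue points. The target group, of 9 genes, holds 2 blue points and no red point, or 22.2% called beside 36.1% of all genes.

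Of the other receptors and ligands 2 were tested, and 0 were called by edgeR, DESeq2 or limma-voom, with 0 at an unadjusted p under 0.05 by each. NOTCH4 had 3 and 4 counts in knockdown and 6 and 5 in control libraries, and DLL4, an endothelial ligand, had 3 and 6 in knockdown and 2 and 3 in control libraries. DLL3, a ligand that inhibits Notch in the same cell, had 26 and 42 counts in knockdown libraries, against 48 and 47 in control libraries, and did not pass (edgeR adjusted p = 0.122).

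Among sugar-adding enzymes that modify the receptors 2 of 4 tested rose, or 50% called beside 36.1% of all genes. POGLUT1 rose by 0.28 and RFNG by 0.30 on the log2 scale, while POFUT1 and LFNG did not pass. POGLUT1 lost its call without knockdown replicate 1 (0.21), control replicate 1 (0.30) and control replicate 2 (0.26), and RFNG lost it whichever of the 4 libraries was left out (0.28 to 0.33). DESeq2 called neither POGLUT1 (adjusted p = 0.0753) nor RFNG (adjusted p = 0.106). Exons of RFNG also overlap those of GPS1, a gene on the opposite strand with a mean count of 2237, over 835 nucleotides, and no source says whether strand was used in counting. Of 9 cleavage genes 33.3% were called, beside 36.1% of all genes. ADAM10, the protease of the ligand-dependent cut, rose by 0.39 and PSEN2, a catalytic subunit of γ-secretase, by 0.43. PSENEN, another subunit, fell by 0.31. ADAM10 had 52.9 CPM in knockdown and 40.4 CPM in control cells on average. Its call was lost without control replicate 1 (0.29), and that of PSEN2 without knockdown replicate 1 (0.29). The PSENEN call was lost without knockdown replicate 2 (-0.26) and without control replicate 1 (-0.22). PSENEN exons overlap U2AF1L4, AD000671.3 and AD000671.2 on the opposite strand, over 332, 425 and 173 nucleotides. On the same strand they overlap AD000671.1 over 285 nucleotides. PSENEN was also not called by edgeR with no normalization factor (adjusted p = 0.0705), with no filter (0.0524) or with sums over the rows of a symbol (0.0627), or by DESeq2 (adjusted p = 0.175). Among those that did not pass were ADAM17, NCSTN, APH1A, APH1B and FURIN.

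RBPJ, through which all canonical Notch signals reach DNA, had 896 and 823 counts in knockdown libraries, against 1190 and 1127 counts in control libraries. Its means were 68.5 CPM in knockdown and 94.3 CPM in control cells. Knockdown libraries were all below control libraries, while the groups lay apart in either direction for 67.2% of all genes tested. The log2 fold change of RBPJ was -0.46 (edgeR adjusted p = 0.000121). EP300, an acetyltransferase recruited by the Notch complex, had 1937 and 2082 counts in knockdown libraries, against 1417 and 1563 counts in control libraries, and rose by 0.40 (edgeR adjusted p = 0.000342). CREBBP, an acetyltransferase of the same group, did not pass, at a log2 fold change of 0.0021 (edgeR adjusted p = 0.987). Of 8 tested genes of this nuclear activation group 3 rose and 2 fell, or 62.5% called beside 36.1% of all genes. That share was not tested. The other called genes of the group moved less. KAT2B, another acetyltransferase, rose by 0.25, and of the Mastermind coactivators MAML2 rose by 0.31, MAML3 fell by 0.25 and MAML1 did not pass. MAML2 lost its call without knockdown replicate 1 (0.17) and control replicate 1 (0.14), MAML3 without knockdown replicate 1 (-0.23) and control replicate 2 (-0.19), and KAT2B without knockdown replicate 1 (0.22), control replicate 1 (0.22) and control replicate 2 (0.28). DESeq2 called none of the 3, with an adjusted p of 0.202 for MAML2, 0.115 for MAML3 and 0.128 for KAT2B. With sums over the rows of a symbol, edgeR gave adjusted p-values of 0.108 for MAML2, 0.0503 for MAML3 and 0.0631 for KAT2B. With no filter, edgeR lost MAML2 (adjusted p = 0.0932) and KAT2B (adjusted p = 0.0565), and with no normalization factor it lost MAML3 (adjusted p = 0.0654). MAML3 exons overlap those of MGST2, a gene on the opposite strand, over 252 nucleotides.

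Of 17 tested corepressor genes 4 rose and 2 fell, or 35.3% called beside 36.1% of all genes. L3MBTL3, a methyl-lysine reader known to bind RBPJ and to bring LSD1 to Notch targets, had 211 and 215 counts in knockdown libraries, against 114 and 115 in control libraries. Its groups lay apart, as for 67.2% of all genes tested, with a log2 fold change of 0.86 (edgeR adjusted p = 1.23e-05). The Groucho family genes, which encode corepressors that HES proteins recruit, went both ways, with TLE2 up by 0.67, TLE4 up by 0.56, TLE1 down by 0.38 and TLE3 not called. SIRT1, a deacetylase described together with LSD1 at Notch targets, rose by 0.26, and its call was lost without knockdown replicate 2 (0.21) and control replicate 2 (0.12). SIRT1 was also not called by edgeR with the size factors of DESeq2 (adjusted p = 0.0509), with no filter (0.0944) or with sums over rows (0.06), or by DESeq2 (adjusted p = 0.192). BEND6, an RBPJ corepressor known from the mouse, had 5 and 5 counts in knockdown and 12 and 14 in control libraries and fell by 1.39. Its call was lost whichever library was left out (-1.51 to -1.26), with no filter (edgeR adjusted p = 0.0673) and with sums over rows (edgeR adjusted p = 0.068). The filter of 1 CPM removed BEND6, and DESeq2 gave it no adjusted p. Among those that did not pass were SPEN, NCOR1, CTBP1, CTBP2, HDAC1, HDAC2, RCOR1, KDM5A and FHL1. The TLE1 call was lost without control replicate 1 (-0.30).

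Genes of ligand and receptor endocytosis and of Notch turnover held 3 that rose and 5 that fell of 14 tested. That is 57.1% called, beside 36.1% of all genes, and the share was not tested. NUMBL, related to the Notch inhibitor NUMB, had 205 and 245 counts in knockdown libraries, against 443 and 353 in control libraries, a log2 fold change of -0.86 (edgeR adjusted p = 1.15e-06), while NUMB did not pass. FBXW7, the ubiquitin ligase subunit that marks the intracellular domain for degradation, fell by 0.50, and CDK8, a kinase that phosphorylates that domain before its degradation, rose by 0.75. CDK8 had 321 and 295 counts in knockdown and 158 and 199 in control libraries. The ligand-activating ubiquitin ligase genes went opposite ways, MIB1 up by 0.31 and MIB2 down by 0.49, and MIB2 lost its call without knockdown replicate 1 (-0.27). NEDD4, another ubiquitin ligase, fell by 0.50. DTX3 and DTX4, of the Deltex family, were rare, with at most 46 counts. DTX3 rose by 1.20 and lost its call without knockdown replicate 1 (1.12) and control replicate 2 (0.88), and DTX4 fell by 0.76 and lost it whichever of the 4 libraries was left out (-0.84 to -0.68). DTX4 was also not called by DESeq2 (adjusted p = 0.191) or by edgeR with sums over rows (adjusted p = 0.0513). DESeq2 gave no adjusted p for DTX3 and so did not call it.

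Of 9 other genes listed as Notch targets and tested by edgeR, 0 rose and 2 fell, or 22.2% called beside 36.1% of all genes. The list was made by name, and whether Notch controls each of its genes in these cells was not tested. Both that fell belong to the HES family. At an unadjusted p under 0.05 edgeR gave 1 that rose, CDKN1A, and 3 that fell, HES2, HES4 and MYC, and limma-voom called CDKN1A as well as the 2 that fell. DESeq2 called 0 of the 9, with 0 that rose and 2 that fell, HES4 and MYC, at an unadjusted p under 0.05. Its adjusted p was 0.122 for HES4 and 0.153 for HES2. HES4 had 37 and 47 counts in knockdown libraries, against 60 and 75 in control libraries, with a log2 fold change of -0.72 (edgeR adjusted p = 0.013). HES2 had 89 and 107 counts in knockdown libraries, against 125 and 140 in control libraries, with a log2 fold change of -0.47 (edgeR adjusted p = 0.0231). Without knockdown replicate 1 the values were -0.60 for HES4 and -0.39 for HES2, without control replicate 2 they were -0.53 and -0.37, and in each case both calls were lost. HES6, HES7, HEY2, MYC, CCND1, CDKN1A and SOX9 did not pass by edgeR. HES3, HES5 and HEYL had 0 counts in all libraries. The 8 proneural factor genes on a further list, among them NEUROD1 and ATOH1, of the kind that HES proteins repress in the nervous system, had at most 4 counts in any library and were not tested.

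**Figure D5:**
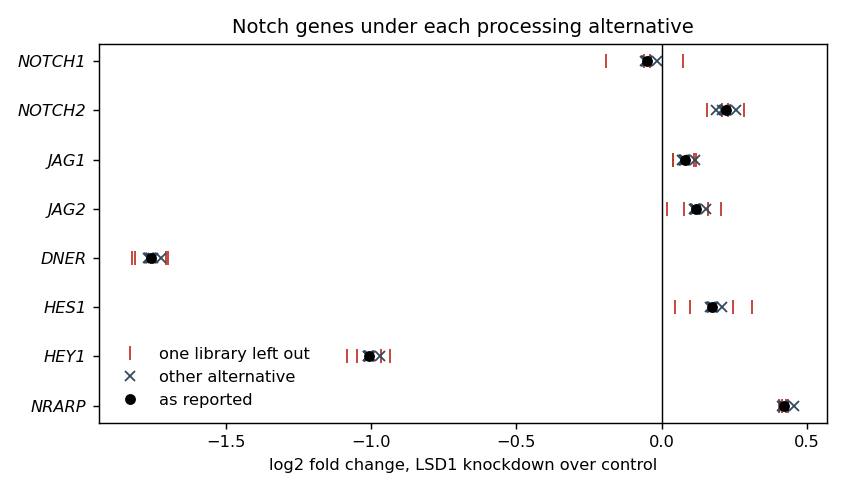
Log2 fold change of each tested Notch gene, LSD1 knockdown over control (horizontal axis), as reported and under each processing alternative, with fits that left out a library as bars. DNER, HEY1 and NRARP stay on their side of 0 with a narrow range, and NOTCH1 crosses 0 when knockdown replicate 1 is left out.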

How the data were processed

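RNA of PC-3M-luc cells was sequenced in 4 libraries, with a headerless table for each. From their values, whole numbers with unequal totals, the deposited columns hold raw counts for RefSeq transcripts, not normalized. Per the submitters' processing notes, the build was hg19 and the tools were HOMER, TopHat2, DESeq 1.8.3 and edgeR, without their roles. Kit, strand and counting settings were not given in the sources used here.

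Of 38767 rows 37677 were matched to 22852 symbols through a RefSeq table (GRCh38.p14) and GENCODE metadata. The other 1090 rows, with 1.38% to 1.4% of the counts, did not enter library sizes or tests. The row with the highest mean stood for each symbol, since isoforms count the same reads. Transcript lengths and exon overlaps came from GENCODE.

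The filter was filterByExpr with a minimum count of 10 and a minimum total of 15, and the scaling was TMM. The quasi-likelihood test of edgeR 4.0.16 (R 4.3.3) compared the groups without covariates. Its p-values were adjusted by Benjamini-Hochberg over 13252 genes, with 0.05 as the threshold. The biological coefficient of variation was 5.96%. CPM values are TMM-scaled unless stated. With 2 libraries per group, p-values depend on a spread estimated over many genes. Intervals come from the same fit and depend on that spread too. The floor of 3 counts assumes independent reads and covers counting error only. Alternatives were DESeq2 1.42.0 and its size factors, limma-voom (limma 3.58.1), a filter of 1 CPM, no filter, no normalization factor, sums over rows, a block for the replicate number, and leaving out each library. The second transcript row of NOTCH2, JAG2 and HEY1 was added after the data were seen. The Notch genes and the lists were chosen with earlier results of these data known. Genes named are KDM1A, the Notch genes and the called pathway genes, with others named where a count needed them, and some genes of the lists are not reported here.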

Additional observations from a re-analysis of the deposited data

How the results depend on the processing

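HEY1, DNER and NRARP kept their direction and their call, and KDM1A did too, in all alternatives tried, and JAG1, JAG2 and HES1 stayed uncalled and above 0 in each. NOTCH2 stayed above 0 and lost its call in 5 of 13 alternatives, among them sums over the rows of a symbol (0.21, edgeR adjusted p = 0.063). The count of called Notch genes was 3 or 4 in each. NOTCH1, not called, lay between -0.19 and 0.073 over the fits that left out a library, and 0.073 came without knockdown replicate 1. DESeq2 called 3182 genes in all, against 4787 by edgeR, and 14 of the other pathway genes, against 26. Leaving out a library gave 15 to 22 called pathway genes. Of 309 results of single pathway genes under the alternatives 61 lost the call and 0 reversed. The causes were not tested. With the replicate number as a block, 5271 genes were called in all, with the same 4 calls among the Notch genes and 28 among the other pathway genes. Nothing in the labels says that a number marks a shared batch, and the correlation of the deviations of same-numbered libraries was 0.0675, so the numbers are not taken to pair the libraries. NOTCH3, DLL1 and NOTCH4 did not pass the filter on low counts. With no filter NOTCH3 (edgeR adjusted p = 0.604) and NOTCH4 (edgeR adjusted p = 0.587) were tested and not called, while DLL1 had 0 counts in all libraries. The 2 libraries per group limit what can be called among small differences such as that of NOTCH2.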
